A study of Mus musculus with 4 samples.

Results

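Densely altered stretches in mouse embryonic stem (ES) cells are runs of neighbouring 5 kb bins in which 5-hydroxymethylcytosine (5hmC) was called different between cells lacking LSH and wild-type cells. They were chosen by the authors' deposited list of differential ES bins on chromosomes 1 to 19. Listed bins separated by at most 10 kb were joined, and the stretches that held 3 or more listed bins were kept. This gave 161 dense stretches among 7395 stretches of any size, with 511 of the 8527 listed bins (5.99% [5.5% to 6.52%]). On the same chromosomes 1.78% of the 478760 bins with sequence were listed in ES cells. Since the listing itself chose the members, their number, length and spacing are a description, and no test was made of them.

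The study had 4 bulk libraries, 1 per group: LSH knockout ES cells, wild-type ES cells, LSH knockout embryonic fibroblasts (MEFs) and wild-type MEFs, the MEFs entering here only through their own list. ES cells, pluripotent cells from the early embryo, were kept with serum and LIF, and MEFs are cultured connective tissue cells of older embryos. The sources used here do not say how LSH was deleted or whether each line was a single clone. The 2 lists hold positions of bins on the mm9 genome, with no level, fold, p-value or direction and no read depth. "Listed" and "altered" therefore mean called different, without saying whether knockout or wild-type cells had more 5hmC, and the labelled cell types could not be checked against markers. In bulk DNA a large change in some cells and a small change in all cells cannot be told apart. Intervals in square brackets are exact 95% binomial intervals unless called quartiles. They cover counting error over bins or stretches, which are not replicates, so differences between kinds of bins are described here and not tested.

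5hmC is made from 5-methylcytosine by the TET dioxygenases, mostly at CpG dinucleotides. In ES cells it is known to lie over gene bodies, at enhancers and around CpG-rich promoters, while the cores of CpG islands, which are largely free of methylation, usually carry little. LSH, encoded by Hells, is a chromatin remodeler of the SNF2 family that is needed for normal DNA methylation, above all at repeated sequence.

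The 8 windows printed here show the kinds of sequence that the dense stretches hold. Each is the 300 bases with most CpG in the listed bins of its stretch, leaving out windows that overlap an annotated untranslated region. The first 6 belong to the 6 stretches that come first by listed bins and then CpG density, and Igf2r and Fkbp9 were added after their values were seen, as the longest unbroken exon run and the stretch with the lowest CpG density. All are on the plus strand of mm9, written 5′ to 3′, with every CG in capitals.
Ppp2r5c chr12:111685191-111685490: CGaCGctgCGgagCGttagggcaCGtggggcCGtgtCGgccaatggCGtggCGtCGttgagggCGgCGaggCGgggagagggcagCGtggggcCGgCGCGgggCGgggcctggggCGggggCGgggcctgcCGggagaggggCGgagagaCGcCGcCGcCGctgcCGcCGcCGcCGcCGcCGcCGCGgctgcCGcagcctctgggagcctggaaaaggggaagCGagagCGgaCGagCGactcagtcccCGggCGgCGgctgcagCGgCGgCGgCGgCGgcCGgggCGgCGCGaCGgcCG
Zfp704 chr3:9450999-9451298: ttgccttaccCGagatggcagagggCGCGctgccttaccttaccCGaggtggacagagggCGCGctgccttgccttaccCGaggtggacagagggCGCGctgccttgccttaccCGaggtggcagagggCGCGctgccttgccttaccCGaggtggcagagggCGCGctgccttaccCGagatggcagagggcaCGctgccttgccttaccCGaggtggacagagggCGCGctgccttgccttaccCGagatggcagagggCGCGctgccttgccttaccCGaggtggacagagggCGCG
Dlgap3 chr4:126913278-126913577: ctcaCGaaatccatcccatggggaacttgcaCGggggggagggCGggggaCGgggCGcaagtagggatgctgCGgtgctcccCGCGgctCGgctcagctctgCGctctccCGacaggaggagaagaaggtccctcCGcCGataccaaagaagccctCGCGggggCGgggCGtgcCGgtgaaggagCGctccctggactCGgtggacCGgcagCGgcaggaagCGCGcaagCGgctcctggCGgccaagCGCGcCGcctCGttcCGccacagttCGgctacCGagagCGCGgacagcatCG
Srp9 chr1:184055064-184055363: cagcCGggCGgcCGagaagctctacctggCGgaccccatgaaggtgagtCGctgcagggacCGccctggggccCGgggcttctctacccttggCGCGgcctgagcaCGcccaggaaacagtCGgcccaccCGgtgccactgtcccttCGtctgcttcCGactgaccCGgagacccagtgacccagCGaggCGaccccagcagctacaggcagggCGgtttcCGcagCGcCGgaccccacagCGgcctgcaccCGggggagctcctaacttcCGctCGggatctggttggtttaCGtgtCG
Mmp25 chr17:23781489-23781788: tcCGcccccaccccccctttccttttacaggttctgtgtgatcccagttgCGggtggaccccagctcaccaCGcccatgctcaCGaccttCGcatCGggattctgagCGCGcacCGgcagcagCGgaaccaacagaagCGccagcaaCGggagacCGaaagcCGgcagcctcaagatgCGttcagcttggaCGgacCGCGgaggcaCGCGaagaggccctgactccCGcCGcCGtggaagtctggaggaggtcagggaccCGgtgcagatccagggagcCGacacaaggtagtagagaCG
Akap1 chr11:88682338-88682637: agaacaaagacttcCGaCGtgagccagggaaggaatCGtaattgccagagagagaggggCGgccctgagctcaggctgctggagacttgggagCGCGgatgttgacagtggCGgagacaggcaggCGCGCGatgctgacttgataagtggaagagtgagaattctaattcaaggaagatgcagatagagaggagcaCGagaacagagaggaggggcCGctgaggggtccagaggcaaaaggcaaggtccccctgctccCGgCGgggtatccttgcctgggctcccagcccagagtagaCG
Igf2r chr17:12880565-12880864: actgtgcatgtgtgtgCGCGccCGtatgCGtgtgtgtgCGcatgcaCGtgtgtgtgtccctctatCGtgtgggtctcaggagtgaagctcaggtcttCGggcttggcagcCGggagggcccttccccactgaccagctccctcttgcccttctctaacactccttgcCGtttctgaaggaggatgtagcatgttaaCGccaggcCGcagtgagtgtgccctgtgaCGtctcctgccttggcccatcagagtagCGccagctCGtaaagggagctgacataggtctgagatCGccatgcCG
Fkbp9 chr6:56800418-56800717: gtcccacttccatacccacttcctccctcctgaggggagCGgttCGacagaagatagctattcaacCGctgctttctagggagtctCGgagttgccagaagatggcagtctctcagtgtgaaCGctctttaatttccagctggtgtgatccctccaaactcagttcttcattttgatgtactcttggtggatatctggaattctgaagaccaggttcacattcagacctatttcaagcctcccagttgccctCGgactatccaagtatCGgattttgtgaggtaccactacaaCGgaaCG

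The Ppp2r5c window held 53 CG, lay 0.177 kb from the start of the gene and is a CpG island core. Only 0.224% of all bins contained a window as rich. The Dlgap3 window, with 36 CG, overlaps a coding exon of this postsynaptic scaffold gene. The Zfp704 window, with 26 CG, lies in an intron and is a tandem repeat. Shifted by 69 bases it matched itself at 62.8% of positions, and it held CGCG 8 times. Srp9 and Mmp25 had 27 and 26 CG in windows that overlap an exon within 1 kb of the gene start. The Akap1 window held 15 CG in intergenic sequence downstream of the gene, and the Igf2r window 17 CG in an intron. At the other end, the Fkbp9 window held 9 CG, which 36.2% of all bins reached or passed. For comparison, 81.4% of 7978600 windows of 300 bases tiled over chromosomes 1 to 19 held at least 1 CG. Their median was 2 and their 99th percentile 13. CG reads the same on both strands. The printed windows were each chosen as the richest of their stretch, and the tiled windows were not chosen. The printed windows ranged from an island core at a gene start to a window inside a gene that 36.2% of all bins matched or passed.

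Dense stretches were short and mostly interrupted. Of the 161, 135 held 3 listed bins, 24 held 4 and 2 held 5. They spanned 15 to 45 kb with a median of 25 kb, and 4.04 Mb in all, of which 2.56 Mb was listed. The other 297 bins inside them were not listed. Of 350 pairs of neighbouring listed bins, 142 touched (40.6% [35.4% to 45.9%]), 119 had 1 unlisted bin between them and 89 had 2. The 782 stretches with 2 listed bins, which lie just outside the rule, touched about as often, in 306 (39.1% [35.7% to 42.7%]). Of the dense stretches, 75 contained a gap of exactly 10 kb, the widest allowed, and 249 stretches would have been dense had gaps of 15 kb been joined. In 47 stretches no listed bins touched at all. Only 24 had 3 or more in a row, and only Dnmbp and Igf2r had 4 in a row.

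**Figure D1:**
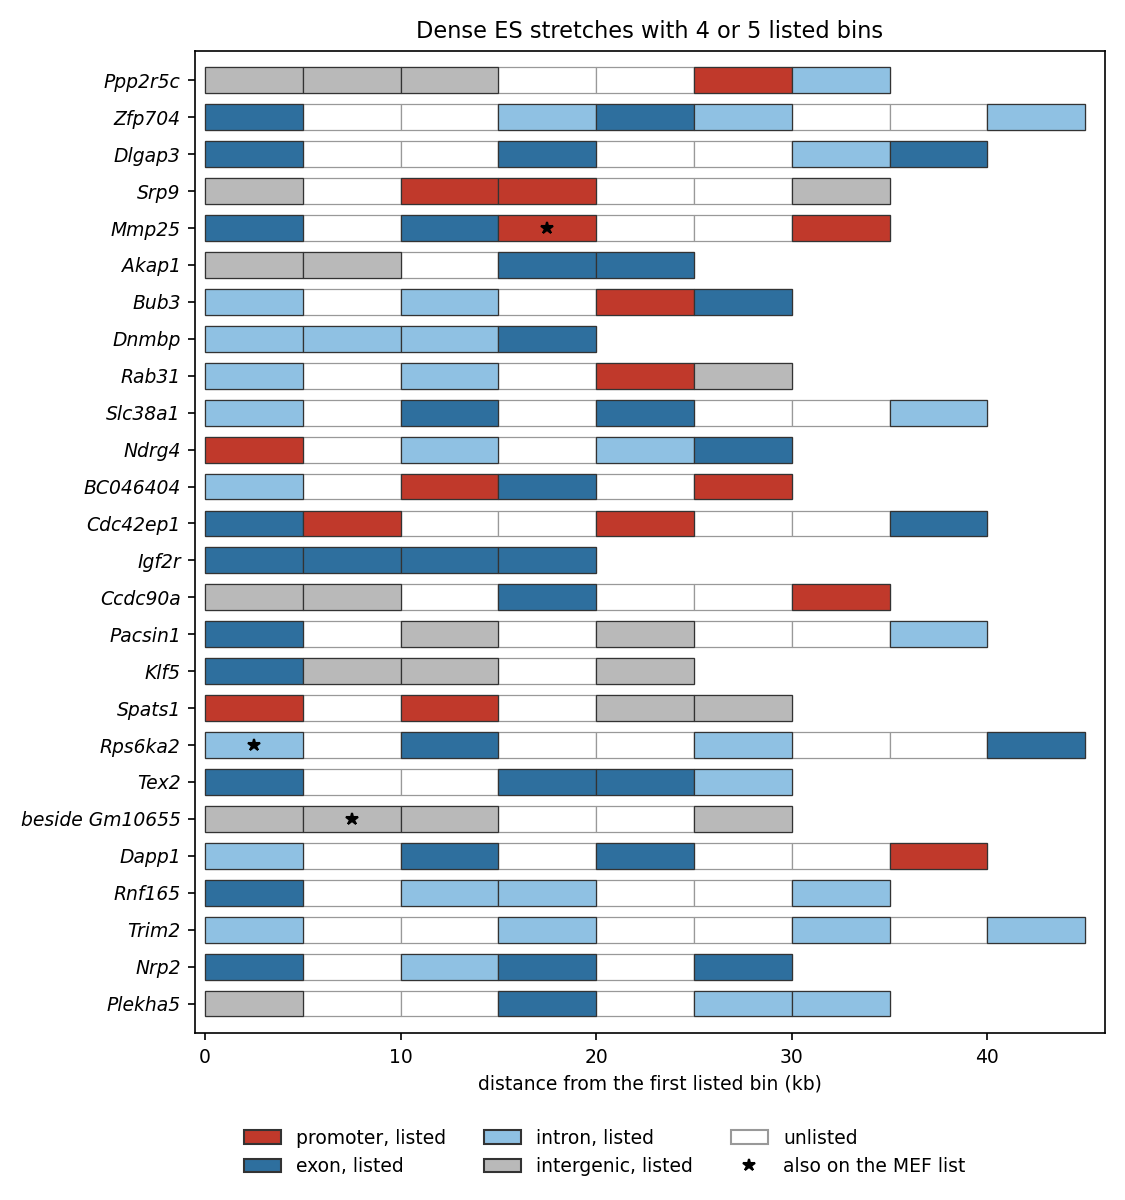
The 26 dense stretches with 4 or 5 listed bins, drawn to scale from the first listed bin (distance in kb) and ordered by listed bins and then CpG density. Filled boxes are listed bins coloured by gene class, open boxes unlisted bins, and stars mark bins also on the MEF list. Unlisted bins interrupt the listed ones in all but Dnmbp and Igf2r, and only 3 stretches carry a star.

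The stretches with most listed bins lay at genes of unrelated kinds. At Ppp2r5c, the gene of a regulatory PP2A phosphatase subunit, 3 touching intergenic bins upstream of the gene had 12.8, 19.2 and 16 CpG per kb. After 2 unlisted bins followed the promoter bin with 36.8 CpG per kb and an intron bin with 12.8. This stretch thus ran across the gene start and its last bin was centred 5.14% into the gene of 135754 bp. At Zfp704, a zinc finger gene of 183075 bp on the minus strand, the 5 bins lay between 64.2% and 86.1% of the way from start to end. The bin with exon 5 had 33.4 CpG per kb, and the other 4 had 9.8 to 14.2. The high bin is the one that holds the tandem repeat printed above. Of the 32-base words sampled in it, 12.8% occur more than once in the genome, and copies within the bin itself count.

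At Dlgap3 (chr4:126875001-126915000) listed bins reached 9 of the 12 exons, from exon 4 to the last. CpG density was 16.6, 24 and 35.4 per kb in the 3 exon bins and 8.8 in the intron bin between. The end of this gene was thus far richer in CpG than its listed intron. At Srp9, a subunit gene of the signal recognition particle (chr1:184040001-184075000), a pair of touching promoter bins lay between listed intergenic bins on both sides, all 4 with 18 to 21.6 CpG per kb. At Mmp25, which encodes a membrane-anchored matrix metalloproteinase, listed bins reached all 10 exons, and a further listed bin covered the start of the neighbouring Ccdc64b (chr17:23765001-23800000). The Mmp25 promoter bin, at 26.0 CpG per kb, was the only promoter bin of any dense stretch that was also on the MEF list.

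The Akap1 stretch (chr11:88680001-88705000) covered exons 3 to 9 of 12 of this mitochondrial anchor for protein kinase A, and went on, after an unlisted bin, with 2 intergenic bins past its end. At Dnmbp, an exchange factor for the small GTPase Cdc42 (chr19:43960001-43980000), 4 touching bins covered 3 intron bins and 1 exon bin with 13 to 21.4 CpG per kb. At Rab31, an endosomal GTPase gene (chr17:66100001-66130000), the promoter bin had 26.2 CpG per kb, and 2 intron bins and 1 intergenic bin had 12.6 to 14.6. Slc38a1, a glutamine transporter gene, had 4 bins centred between 8.17% and 57.1% of its length. Ndrg4 had bins from its promoter to 56.7% of its length, with 15.4 to 18.2 CpG per kb in all 4. At BC046404 a stretch of 4 bins (chr11:62435001-62465000) included 2 promoter bins, with 12.8 and 34.4 CpG per kb, that between them reached the starts of BC046404, 4930557C09Rik and Mmgt2.

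The stretch at Bub3, a spindle checkpoint gene (chr7:138680001-138710000), shows how the 5 kb grid bears on gene names. Its bins were the Bub3 promoter with 26.4 CpG per kb, the bin after it with 13.4, and 2 bins upstream with 15.0 and 13.4. The homeobox genes Hmx3 (138686381 to 138688439) and Hmx2 (138697576 to 138700096), known for inner ear development, lay almost wholly in the unlisted bins between. Those unlisted bins averaged 54.1 CpG per kb. Hmx2 was reached by its last bases in the Bub3 promoter bin, and Hmx3 by its upstream flank alone. The 2 upstream bins counted as intron bins only through the 3009069 bp model of Fgfr2, which contains 37 other genes in the annotation used.

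The other 14 stretches with 4 bins averaged 11.3 CpG per kb at the lowest, at Plekha5. Among them, Igf2r had the most exons. This gene encodes the receptor that clears IGF2, and is imprinted and expressed from the maternal copy in most mouse tissues. Its 4 touching bins (chr17:12880001-12900000) held exons 23 to 44 of 48, 74.5% to 91.7% of the way along the gene, with 20.4, 12, 14.8 and 15.6 CpG per kb. No bin of the stretch was at the Igf2r promoter, and none was on the MEF list. At Klf5, a transcription factor gene that supports self-renewal of ES cells, the stretch (chr14:99710001-99735000) took in exon 4, the last, and 3 intergenic bins past the gene end. Nrp2, a receptor for semaphorins and VEGF, had exons 4 to 12 of 17 partly covered, at 8.6 to 13 CpG per kb. Trim2, a ubiquitin ligase gene, had 4 intron bins and no exon.

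Of the stretches with 3 listed bins, 17 had them in a row without a gap. In order of CpG density the first was Ltbp4, which encodes a latent TGF-beta binding protein of the elastic matrix. Its 3 exon bins held exons 6 to 24 of 33, with 15.4, 14.2 and 39.8 CpG per kb. C130039O16Rik, Ccdc19, Acp6 and Asb8 had unbroken runs that began at their promoter bin and went into the gene, with 16.5 to 22.9 CpG per kb over the run. At Sgsh, the lysosomal sulfamidase gene, the run reached all 8 exons and a promoter bin shared with the anion transporter gene Slc26a11 (chr11:119205001-119220000). At Bcl7a, a subunit gene of the BAF remodelling complex, the run took in the last exon and then 2 intergenic bins past the gene end.

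Abcg8, the gene of a sterol exporter, had exons 4 to 14 of 14 in a run of 3 bins, and Csdc2 exons 2 to 4 of 4. The run at Tiam1, an exchange factor for Rac, was intron only, 57.9% to 60.7% into a gene of 356659 bp. That at Srgn, the proteoglycan of secretory granules, had 1 intron and 2 exon bins with 12.6 to 14.8 CpG per kb. The other 5 unbroken runs averaged 9.6 to 13.5 CpG per kb. Unbroken runs thus occurred at gene starts, over gene ends, across many exons and deep in introns.

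Most dense stretches lay in genes. In 141 of 161 (87.6% [81.5% to 92.2%]) at least 1 listed bin overlapped a gene, and in 86 (53.4% [45.4% to 61.3%]) a single gene held all of them. The 511 bins overlapped 196 genes, of which 178 were protein-coding, 11 lincRNA and 7 processed transcripts. In 46 stretches listed bins reached 2 or more genes, and in 10 they reached 3 or more. The gene with most listed bins in its stretch had a median length of 56.5 kb (quartiles 26 to 114 kb). Genes with listed bins outside dense stretches had a median of 36.6 kb (4931 genes) and all genes 13.7 kb. Several bins fit in 1 gene only if it is long, so part of this follows from the rule, and the share was not tested. Picking 1 gene per stretch by listed bins, with last ties going to the longer gene, also favours long genes. The 4931 genes were not picked in this way, so the medians are not of like sets.

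Each bin was put in 1 class by any overlap, as promoter within 1 kb of a gene start, otherwise exon, otherwise intron, otherwise intergenic. Exon bins made up 40.5% of dense bins [36.2% to 44.9%], against 35.2% of the bins of 2-bin stretches, 34.1% of isolated listed bins [32.9% to 35.3%] and 17.4% of all bins. Intergenic bins were 23.9% of dense bins [20.2% to 27.8%], 27.0% in 2-bin stretches, 31.2% of isolated bins [30.1% to 32.4%] and 54.4% of all bins. Exon bins were thus more and intergenic bins less frequent in dense stretches than among isolated listed bins, with intervals that do not overlap. Promoter bins were 10.8% of dense bins and 11.7% of isolated bins, and intron bins 24.9% and 23.0%, with overlapping intervals. By the midpoint of the bin instead of any overlap, intron bins led in dense stretches with 60.1% and exon bins were 8.02%. A dense bin more often held 2 or more exons, in 33.9% [29.8% to 38.1%], against 26.5% of isolated bins [25.4% to 27.6%] and 11.9% of all bins.

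**Figure D2:**
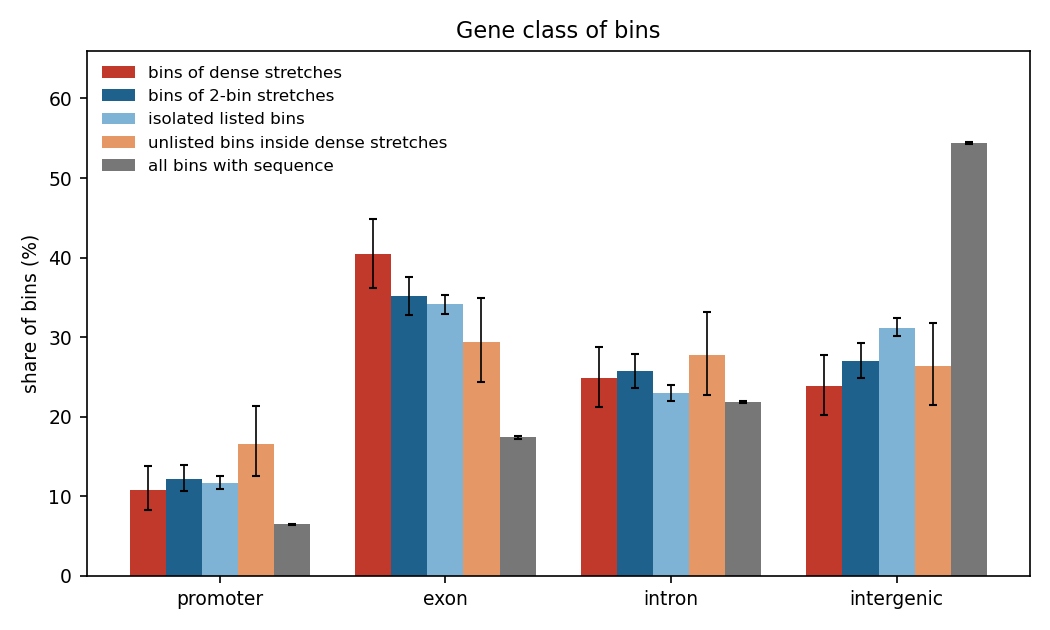
Share of bins (%) in each gene class by any overlap, for bins of dense stretches, bins of 2-bin stretches, isolated listed bins, unlisted bins inside dense stretches and all bins with sequence. Error bars are exact 95% binomial intervals over bins. The exon share is highest in dense stretches, at 40.5%, and the promoter share is highest in the unlisted bins inside them, at 16.6%.

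The unlisted bins inside the stretches serve as neighbours of like surroundings. They were promoter bins in 16.6% [12.5% to 21.3%] and exon bins in 29.4% [24.3% to 34.9%], against 10.8% and 40.5% in the dense bins around them. Leaving out the first and last bin of each stretch, which are listed by construction, 486 interior bins remained, of which 189 (38.9% [34.5% to 43.4%]) were listed. By class, 46.3% of interior exon bins [38.5% to 54.3%], 37.6% of intergenic, 35.4% of intron and 30% of promoter bins [19.6% to 42.1%] were listed. Within a stretch, exon bins were thus the class most often listed and promoter bins the class least often listed, with overlapping intervals.

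Along the genes, dense stretches occurred at both ends and in the middle, and whether they avoided the ends was not tested. Of the 134 stretches with a bin centred in their leading gene, the median bin was centred in the first 25% of the gene in 24, between 25% and 50% in 41, between 50% and 75% in 41 and in the last 25% in 28. The promoter bin of the leading gene was listed in 39 stretches, the bin with its end in 34, and both in 9. The nearest gene start lay within 10 kb in 96 stretches, at a median of 6.88 kb and at most 278 kb. In 8 stretches the listed bins reached all exons of the leading transcript, among them Mmp25 with 10, Asgr1 with 9, Sgsh with 8 and Snx18 with 4. In 10 stretches they reached 10 or more exons, led by Plxnb1 with 25 of 38 and Igf2r with 22 of 48. In 26 stretches led by a gene they reached no exon of the leading transcript. Some of these, as at Zbtb38, still had exon bins, through exons of other transcripts or genes.

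**Figure D3:**
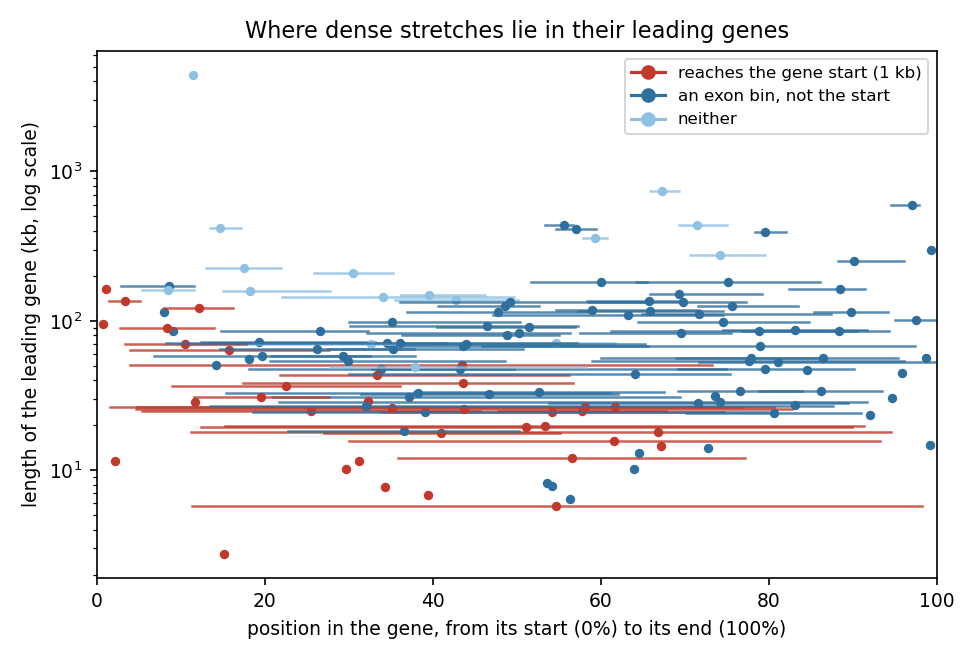
Position of 134 dense stretches in their leading genes, from start (0%) to end (100%), against gene length (kb, log scale). Lines run from the centre of the first to that of the last listed bin in the gene, points mark the middle, and colours show whether the promoter, an exon but not the promoter, or neither was listed. Stretches without a promoter or exon bin lie in genes of about 50 kb and longer, and the single point at the top left is the wide model Gm20388.

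Among stretches of intron bins only, of which there were 15, were those at Tiam1, Trim2, Sez6l, Fam38a, Slc10a7 and Chst11. Another 24 stretches were of exon bins only, and 46 had a promoter bin, 9 of them 2 or more. The larger stretches had promoter bins more often, in 11 of 26 with 4 or 5 bins (42.3% [23.4% to 63.1%]) against 35 of 135 with 3 bins (25.9% [18.8% to 34.2%]), with overlapping intervals. Stretches with more bins had more occasions to include one.

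In 20 stretches no listed bin was in a gene. The nearest coding gene was 1.24 to 295 kb away, with a median of 23.2 kb. Their CpG density was narrow, 9.47 to 14.7 per kb with a median of 12.5, below the median of 16.9 in stretches with a promoter bin. The largest, with 4 listed bins, lay 53.6 kb from Gm10655 (chr9:61135001-61165000). Among the 20, the 2 farthest from any coding gene were nearest to Sox2 and Jarid2. Sox2, a core pluripotency factor, was 159 kb from a stretch of 3 bins (chr3:34710001-34735000). Jarid2, a partner of Polycomb complex PRC2, was 295 kb from another (chr13:44495001-44530000). The 2 closest lay by Lrrc31 (1.24 kb) and Riok1 (1.7 kb). A nearest gene need not be the gene a sequence acts on.

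All 161 dense stretches lay above the median bin in CpG density, some by little. Their bins had a median of 14.0 CpG per kb (quartiles 11.8 to 16.9), against 13.3 in 2-bin stretches, 12.2 in isolated listed bins (quartiles 9.8 to 15.4) and 7.2 in all bins (quartiles 4.8 to 10.6). Of the 511 bins, 507 were above the median of all bins, and 222 (43.4%) were above their 90th percentile of 14.6. Averaged over listed bins, each of the 161 stretches was above the median of all bins. GC content followed the same order, with medians of 47.7%, 47.0%, 46.1% and 41.4%. The lists do not show which other bins carried 5hmC, so no background of bins with 5hmC can be given. All bins with sequence are the widest background, and the unlisted bins nearby, given below, are a closer one.

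**Figure D4:**
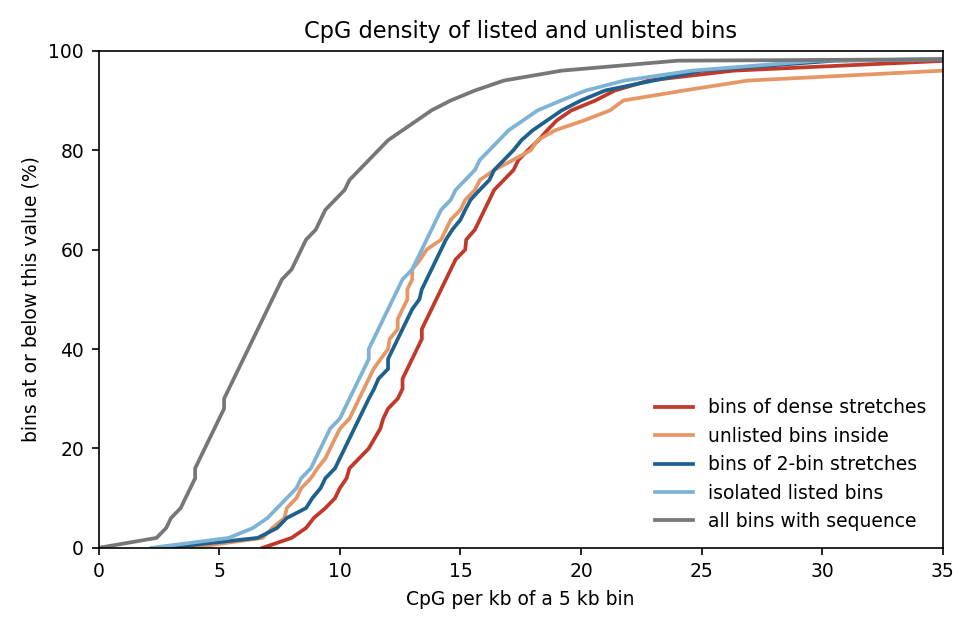
Cumulative share of bins (%) by CpG per kb, for bins of dense stretches, unlisted bins inside them, bins of 2-bin stretches, isolated listed bins and all bins with sequence. The curve of dense bins lies furthest to the right up to about 18 CpG per kb, where that of the unlisted bins inside crosses it, and all bins lie furthest to the left.

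The surroundings were rich too. Unlisted bins inside the stretches had a median of 12.8 CpG per kb, as had the unlisted bins within 25 kb outside, and at 100 kb from a stretch the median was still 11.8. Dense bins were richer than the unlisted bins in 88 of the 142 stretches that have both, and poorer in 54. The relation was not even. Of interior bins with under 10 CpG per kb 29.2% were listed [20.3% to 39.3%], and of those with 10 to 15 it was 39.3% [32.8% to 46.1%]. With 15 to 20 it was 50.9% [41.2% to 60.6%], with 20 to 30 it was 37.5% [22.7% to 54.2%], and with 30 or more it was 4 of 21 (19% [5.45% to 41.9%]). The share was highest at 15 to 20, where its interval lies above that of bins under 10 and overlaps those of the other classes.

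CpG islands, taken as 200 bases or more with at least 50% GC and an observed over expected CpG ratio of 0.6, were in 67.3% of dense bins [63.1% to 71.4%]. The share was 59.0% in 2-bin stretches, 55.7% in isolated bins [54.5% to 57.0%] and 26.9% in all bins. At least 1 listed bin had an island in 153 of the 161 stretches, and every listed bin had one in 57. Larger and denser islands, of 500 bases or more with 55% GC and a ratio of 0.65, did not follow this order. They were in 9.59% of dense bins [7.18% to 12.5%], 9.49% of isolated bins and 14.2% of the unlisted bins inside the stretches [10.4% to 18.7%]. Dense stretches thus differed from isolated bins in how often they held small islands, and not detectably in large ones.

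CpG density ranged widely from stretch to stretch. The highest value, 29.1 per kb, was at Snx18, a sorting nexin gene, where the promoter bin had 50.8 and the other bins 18.2 and 18.4. Among those that followed were Sik1, a salt-inducible kinase gene, with 24.4, Zfp523 with 24.1 and 9830001H06Rik with 23.9. In each of these 3 a promoter bin had 36 or more and the remaining bins 12.2 to 22.6. The lowest value, 8.13, was at Fkbp9, a prolyl isomerase gene of the endoplasmic reticulum, where 3 exon bins had 7.4, 9.6 and 7.4. Next came Diap1, a formin gene, with 9.33, the laminin gene Lama1 and Gm5893 with 9.4 each, and an intergenic stretch 18.8 kb from Rpl36-ps3 with 9.47. The highest stretch without a promoter bin was Ltbp4, where an exon bin had 39.8, and no bin of the 5 lowest stretches was above 13.4. Few dense bins were rich in 32-base words that recur in the genome, a measure that counts exact copies only. The median share of such words was 4.17% in dense bins, 3.8% in 2-bin stretches, 3.7% in isolated bins and 6.25% in all bins. Over 20% of the sampled 32-base words recurred in the genome in 2.54% of dense bins [1.36% to 4.31%], 4.73% of isolated bins and 22% of all bins. Only the stretch at Sbno1 was above that on average, with 21.9%.

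The MEF list, which had no part in choosing the stretches, shared 19 of the 511 dense bins (3.72% [2.25% to 5.75%]). Over all bins 1.86% were on it. The share was 6.46% of bins in 2-bin ES stretches [5.29% to 7.79%], 4.43% of isolated ES bins [3.94% to 4.96%] and 5.07% of the unlisted bins inside dense stretches [2.86% to 8.22%]. Dense ES bins were thus not more often altered in MEFs than isolated ES bins, and the interval of the unlisted bins between them covers the same values. Counted by stretch, 17 of 161 dense stretches had a bin on the MEF list (10.6% [6.27% to 16.4%]), against 11.8% of 2-bin stretches. Within 10 kb of a listed MEF bin lay 33.5% of dense stretches [26.3% to 41.4%], 31.6% of 2-bin stretches and 20.5% of isolated bins. Longer stretches have more bins that can coincide.

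The shared bins lay mostly outside promoters and exons. Of the dense bins on the MEF list, 8 were intron bins (6.3% of 127), 7 intergenic (5.74% of 122), 3 exon (1.45% of 207 [0.3% to 4.18%]) and 1 promoter (1.82% of 55). Among all other listed ES bins the exon share was 3.78% [3.1% to 4.56%] and the intron share 6.36% [5.3% to 7.56%]. Their intergenic share was 5.13% [4.29% to 6.08%] and their promoter share 4.03%. Over all bins of each class, 2.72% of intron, 1.31% of intergenic, 2.26% of exon and 2.51% of promoter bins were on the MEF list. The interval of dense exon bins covers the share of all exon bins and overlaps that of other listed exon bins, so the low count sets them apart from neither. The intron and intergenic shares of dense bins have intervals that lie above the shares over all bins of those classes. The same holds for the other listed ES bins, so this is not particular to dense stretches. The 3 shared exon bins were at Meaf6, Col4a2 and Top2a, and the promoter bin was that of Mmp25.

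Sez6l and Fam38a each had 2 shared bins. Sez6l, a neuronal membrane protein gene, had MEF-listed bins with 18 and 12.8 CpG per kb in its introns (chr5:112960001-112985000). Fam38a, now called Piezo1, encodes a mechanosensitive channel and had them with 8.6 and 13.6 (chr8:125045001-125070000). By the same rule MEFs had 420 dense stretches, and 4 of the 161 ES stretches overlapped one. These were Sez6l, Chst11 and Slc38a1, each meeting a MEF stretch of 3 bins, and the intergenic stretch by Gm10655, which met one of 6 bins (chr9:61105001-61160000). At Slc38a1 the listed bins interleaved, since none was shared and 3 unlisted ES bins inside the stretch were on the MEF list.

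The gene lists used to group the members were drawn up with earlier results of these data known. Of all 24930 genes 0.878% were reached by a dense bin in the body or within 5 kb upstream. Among regulators, 0 of 39 Hox genes and 3 of 128 other homeobox genes were reached. Besides Hmx2 and Hmx3 this was Tshz2, a teashirt zinc finger gene, with 6 bins in 2 stretches 50 kb apart (chr2:169690001-169710000 and chr2:169760001-169790000). Of its 6 bins 4 were intron bins, 1 an exon bin and 1 a promoter bin of the overlapping AY702102. Of 32 pluripotency genes Klf5 was reached, and of 43 imprinted genes Igf2r. Of 35 genes for cytosine methylation and its readers Zbtb38 was reached, a zinc finger protein that binds methylated CpG, with 3 bins of which 2 were exon bins at 25 and 15.2 CpG per kb. Of 334 Zfp genes 2 were reached, Zfp704 and Zfp523.

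In signalling, 2 of 69 Wnt pathway genes were reached, the transcription factor genes Lef1 and Tcf7l1. Tcf7l1, which restrains the pluripotency network, had its promoter bin listed, at 42.4 CpG per kb, and 2 intergenic bins upstream at 11.8 and 12.4. Of 71 axon guidance genes Nrp2 and Plxnb1, a semaphorin receptor, were reached. Of 15 postsynaptic scaffold genes 2 were reached, Dlgap3 with 4 bins and Dlg4, the PSD-95 gene, with 1 at its end. Ppp2r5c was 1 of 16 PP2A genes, Ndrg4 1 of 4 NDRG genes, Trim2 1 of 56 Trim genes, Plekha5 1 of 28 Plekh genes and Col4a2 1 of 41 collagen genes. Of 357 solute carrier genes 7 were reached, among them Slc38a1, Slc10a7 and the arginine transporter Slc7a1. Of 91 potassium channel genes, 76 Fbx genes and 1399 olfactory and vomeronasal receptors none was reached. With 0 to 7 genes per list, and lists that differ in gene length from a median of 969 bp in the receptors to 107330 bp in the collagens, these counts single out no list. The only miRNA gene in a dense bin was Mir202, in the stretch at Gm16201 on chromosome 7.

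Dense stretches were spread over 19 of 19 autosomes, and the X chromosome had 0. Of the 8557 listed ES bins 8527 were on chromosomes 1 to 19, so X had few from which a stretch could form. Chromosome 17 had the most, 15, holding 51 of its 444 listed bins (11.5%), and 6 of the 26 stretches with 4 or 5 bins. Chromosomes 3 and 15 followed with 9.51% and 8.51%, and chromosomes 19 and 10 were lowest with 3.58% and 3.66%. Without chromosome 17 the median CpG density was 13.9 per kb, the exon share 39.6% and the share on the MEF list 3.48%, so these features did not rest on it.

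**Figure D5:**
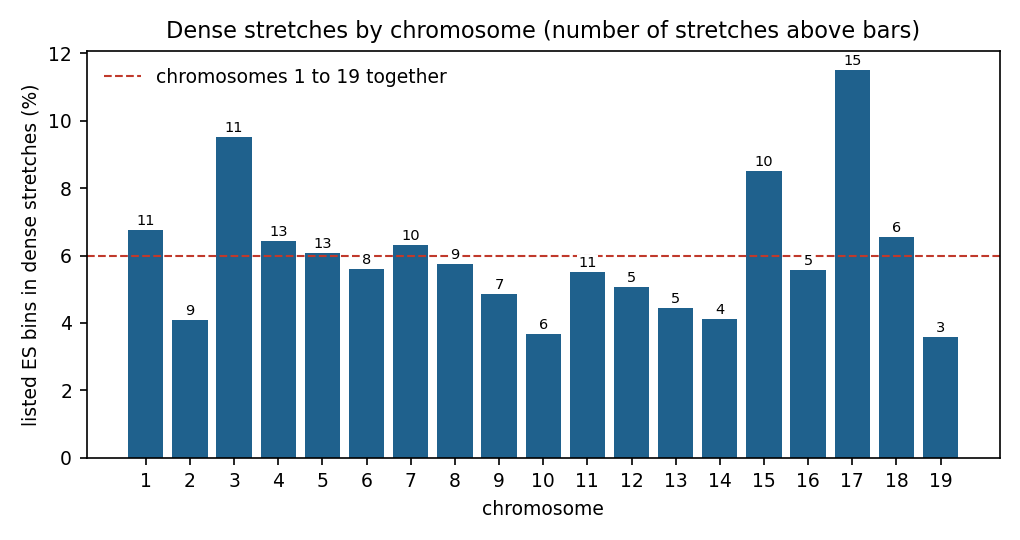
Share of listed ES bins (%) that lie in dense stretches, for chromosomes 1 to 19, with the number of dense stretches above each bar. The dashed line is the share over all 19 chromosomes, 5.99%. Chromosome 17 stands highest at 11.5% and chromosome 19 lowest at 3.58%.

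The median distance from a dense stretch to the next was 6.66 Mb, and 10 pairs lay within 200 kb of each other. The nearest pair was Cdc42ep1 and Sh3bp1, on chromosome 15 with 15 kb between them. Sik1 and an intergenic stretch by Hsf2bp were 25 kb apart, the Tshz2 stretches 50 kb, and Abcg8 and Lrpprc 55 kb. Lrpprc, a mitochondrial RNA-binding protein gene, was itself reached by both stretches of that pair, the first touching its end. Srp9 and an intergenic stretch by Enah were also 55 kb apart. The others were Meaf6 and a stretch by Zc3h12a (80 kb), Mical3 and one by Pex26 (105 kb), Col4a2 and Cars2 (125 kb), Spata21 and Arhgef19 (130 kb), and Tbc1d16 and Sgsh (165 kb). Beyond the 15 kb that the rule keeps free of listed bins, 3.73% to 7.76% of bins at 20 to 100 kb from a dense stretch were listed in ES cells, against 1.78% of all bins. The same list chose the stretches, and the bins around them also had more CpG than all bins, so these shares are a description only.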

How the data were processed

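5hmC-bearing DNA fragments of LSH knockout and wild-type ES cells and MEFs (1 library each) were tagged with azide-glucose, biotinylated, captured and sequenced, per the labels' design text. The submitters' processing notes name BWA, SAMtools 1.3.1 and mm9 without their role. The deposited lists hold no levels but other values: each gives chromosome, start, end and running number of the 5 kb bins called differential. The caller, its threshold and any input control were not given in the sources used here. Read depth is unknown. No value per library was used.

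Bins were joined and counted as stated above, with positions printed 1-based. The numbers of all 8527 ES and 8920 MEF bins on chromosomes 1 to 19 equalled those of the reference, NCBIM37 (mm9) with GENCODE M1, and none was listed more than once. Where sequence mattered, bins with more than 50% N were dropped, which left 8919 MEF bins. Genes were 26031 protein-coding, lincRNA and processed transcript models, and a bin's class used gene starts. Repeat share is the share of 32-base words, 1 in 64 sampled, found more than once in the genome. The gene table of another assembly served for synonyms only. Intervals are exact binomial. Joining, classes and island finding were tested on simulated data. The tools were numba 0.67.0, pandas 2.3.3, matplotlib 3.10.9, scipy 1.17.1 and numpy 2.4.6 under Python 3.11.15.

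Named with values were the first 12 stretches by listed bins and then CpG density among those with 4 or more bins, and likewise among unbroken runs of 3. Also named were stretches with 2 or more MEF bins, genes with 2 stretches, up to 4 members reached per gene list, the 5 highest and 5 lowest by CpG density, the highest by repeat share, and pairs within 200 kb. Some items that these rules name are not reported here. Other names were chosen after their values were seen. The members, gene lists and rules were chosen with earlier results of these data known. Alternatives varied the gap, the fewest bins, chromosomes, class rule, gene models, island rule, MEF overlap and repeat share. Leaving out wide models from the classes and leaving out chromosome 17 were chosen after seeing the data.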

Additional observations from a re-analysis of the deposited data

How the results depend on the processing

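Each list comes from 1 library per genotype, so no replicate could be left out and no error on 5hmC itself is known. Read depth is unknown, so an unlisted bin may be unaltered or too thinly covered to be called. No paired analysis was possible because each group has a single library and the result comes from no test. Of 92 alternative values for 12 results, 67 stayed within the main interval, or for counts within 1.5 times, and 25 moved. Those that stayed include the values with X added, which held 0 dense stretches and so could move none of the 12 results.

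With gaps of up to 5 kb there were 98 dense stretches and 304 bins, and 50% of neighbours touched. With 20 kb there were 335 and 1126, 26.4% touched and 41.2% of stretches lay in a single gene. With 4 or more bins required there were 26 and 106, with promoter, exon and intron shares of 15.1%, 34.0% and 30.2%, and 96.2% of stretches in a gene. With 2 or more there were 943 and 2075, with 13.4 CpG per kb, 61.0% with an island, 5.78% on the MEF list and 80.1% in a gene. The changed counts follow from the construction of the alternatives, and the cause of the other shifts was not tested. By bin midpoint the promoter, exon and intron shares were 4.5%, 8.02% and 60.1%. With promoters of 2 kb their share was 14.5%. The strict island rule gave 9.59%, and a MEF bin within 10 kb 22.7%. Adding X could change none of the 12 results, because X held 0 dense stretches, so it is no test of them. Leaving out wide models, non-coding genes, chromosome 17, or bins of over 20% repeat share moved no recomputed value outside its interval or 1.5-fold range.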

Other observations

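The unlisted bins inside dense stretches include some of the most CpG-dense sequence nearby, a pattern noticed in the data and described here with no test. At Bub3 the unlisted bins averaged 54.1 CpG per kb and held most of Hmx2 and Hmx3, whereas the 4 listed bins averaged 17.1. At 3010003L10Rik on chromosome 4, whose promoter bin is also that of Dmrta2, they averaged 53.7 against 15.1 in the listed bins. At Sbno1 and Arhgef19 they averaged 33.0 each, against 10.1 and 20.6. These were the 4 stretches with the highest values for unlisted bins, and in 88 of 142 stretches the unlisted bins were the poorer ones. The lists hold no 5hmC level for any of these bins.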
